A study of Rattus norvegicus with 6 samples.

Results

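The adrenergic receptors, the receptor kinases that phosphorylate them and the beta-arrestins that bind them afterwards were examined in cultured neonatal rat ventricular cardiomyocytes (NRVCs). The set holds 9 genes, namely the beta receptors Adrb1 and Adrb3, the alpha-1 receptors Adra1a, Adra1b and Adra1d, the kinases Grk2 and Grk5, and the arrestins Arrb1 and Arrb2. The members were taken by gene symbol among 16575 genes with a named probe on a rat expression array, and each of the 9 had at least 1 probe. They were chosen by name and not by their values. The cells came from ventricles of Sprague-Dawley rats aged 1 to 2 days, with the hearts of 8 to 10 rats per preparation. The labels name a serum-free medium for the dispersed cells, and the study's methods a short starvation in low serum before C3a was added. In the C3a group (3 samples) recombinant C3a, the fragment released when complement C3 is cleaved, was present at 0.5 µg/ml for 12 h, while the control group (3 samples) was cultured in control medium. The labels name no genotype, adrenergic agonist or blocker in either group. They also do not say whether the samples of a group are separate preparations, so p-values measure only the spread between these samples, which may be technical.

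In the heart, noradrenaline and adrenaline raise the rate and force of contraction mainly through the beta-1 receptor, which couples to the stimulatory G protein, adenylyl cyclase and protein kinase A. Alpha-1 receptors couple to Gq and phospholipase C, and their stimulation is a classical way to make neonatal rat cardiomyocytes grow in culture. Once an agonist has bound, receptor kinases phosphorylate the receptor and beta-arrestins then uncouple it from its G protein and carry it into the cell.

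Each of the 6 samples had its own 1-colour array, and no spot was saturated. The arrays shared a slide on which controls and C3a samples took opposite sides, so position on the slide cannot be told apart from treatment. The scanner software called between 53.7% and 57.3% of probes well above background on 5 arrays, and 38.6% on control replicate 1. The median local background was 47 intensity units on that array and 23 or 24 on the others. Of the cardiomyocyte markers with a probe, 13 of 13 were well above background on all 6 arrays, among them the myosin heavy chains Myh6 and Myh7 and the troponin Tnnt2. Markers of other cells were also present. Detection on all 6 arrays was found for 6 of 10 fibroblast, 5 of 8 endothelial, 3 of 10 macrophage, 5 of 8 smooth muscle and pericyte, and 3 of 7 Schwann cell and neuron genes. Fewer cells of a type and less RNA per cell cannot be told apart in such cultures.

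Levels are given as the log2 of the background-corrected signal, with the array's 75th percentile set to 0. A difference of 1 is a doubling of the signal. Levels of different genes come from different probes and were not ranked against each other. A gene with several probes is represented by the one with the highest mean over the 6 arrays, and a probe was tested when either group had it well above background on each of its 3 arrays. By these rules 8 of the 9 members were tested, and 6 of them (Adra1a, Adra1b, Grk2, Grk5, Arrb1 and Arrb2) were well above background on all 6 arrays. Over all genes with a probe, 62.7% were tested and 51.6% were detected, that is well above background, on every array.

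With C3a, none of the tested members passed an adjusted p under 0.05 in limma, which shares its estimate of spread across probes, with Benjamini-Hochberg adjustment over 23438 probes. Over all genes the share passing was 0%, so the count of 0 among 8 members was that of the whole array. At an unadjusted p under 0.05 limma also gave 0 of the 8 members, beside 5.33% of all genes, of which 2.91% were higher and 2.43% lower with C3a. Adjusted p of the members from limma lay between 0.743 and 0.872, and their log2 differences, C3a minus control, between -0.14 for Grk5 and 0.55 for Adra1d. The difference was above 0 for 6 members and below 0 for Adrb1 and Grk5, while 60.6% of all genes lay above 0. The median over the 8 members was 0.14, beside 0.036 over all genes with a tested probe. Adrb1 and Adra1d entered the test through the C3a arrays alone, so neither the count nor the median is over all members, and the 6 members detected on every array had the same median.

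**Figure D1:**
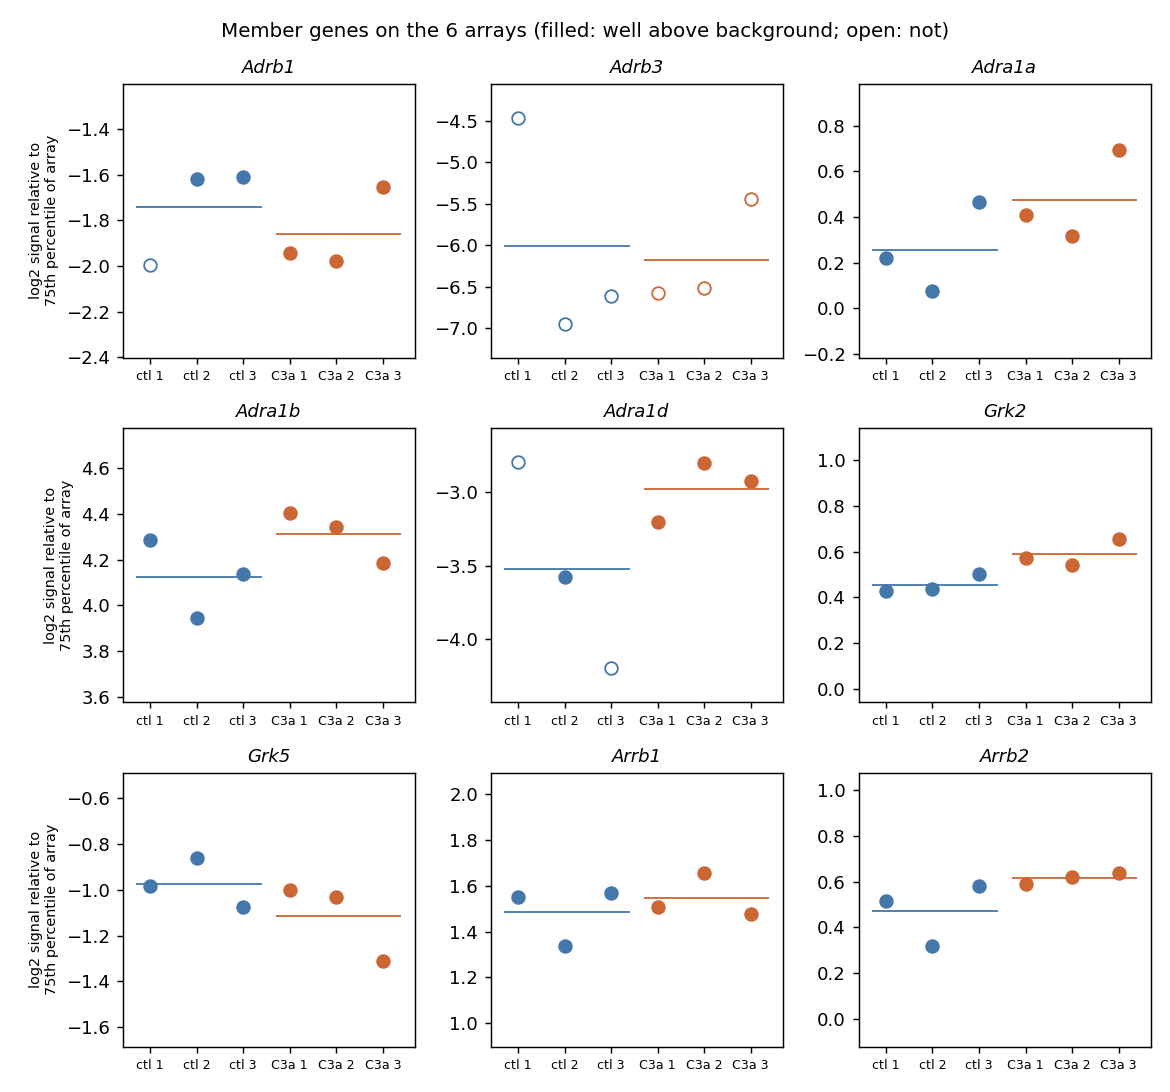
Level of each member on every array, as log2 signal with the array's 75th percentile set to 0, with controls (ctl) in blue and C3a arrays in orange. Lines are group means, filled points are arrays on which the probe was well above background, open points are not, and each panel has its own range of levels. The 2 groups overlap in all panels except Grk2 and Arrb2, and no Adrb3 point is filled.

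Adrb1 encodes the beta-1 receptor, the main beta receptor of cardiomyocytes. Its probe (A_64_P130105) was dim, with a level of -1.99, -1.62 and -1.61 on control replicates 1, 2 and 3 and of -1.94, -1.98 and -1.66 on the C3a arrays. It was well above background on 5 of 6 arrays, and the exception was control replicate 1, the array with the higher background, where its level was also the lowest of all. The groups overlapped. The mean level was -1.74 ± 0.22 (SD, n = 3) in the controls and -1.86 ± 0.18 (SD, n = 3) with C3a, and the log2 difference was -0.12 (standard error 0.15, adjusted p = 0.816 from limma). As a ratio of C3a to control this was 0.922, with a 95% interval of 0.724 to 1.17. Without control replicate 1, which is without the array that did not measure the gene, the log2 difference was -0.24, and over all arrays left out in turn it ran from -0.24 to -0.052.

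Adrb3 encodes the beta-3 receptor, best known from fat cells and coupled in the heart to nitric oxide signalling. Its probe (A_64_P150549) was well above background on 0 of 6 arrays. Background-corrected intensities were between 2.4 and 4.8 units on 5 arrays and 12.4 units on control replicate 1. Since neither group had a measured level, no difference is given. A less strict flag of the scanner software, which asks only that a signal be positive and significant, was set for Adrb3 on 1 array and for every other member on all 6.

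Adra1a encodes the alpha-1A receptor. Its brightest probe (A_64_P053790) had a level of 0.22, 0.07 and 0.47 on the control arrays and of 0.41, 0.32 and 0.69 on the C3a arrays. The lowest array was control replicate 2 and the highest C3a replicate 3, and control replicate 3 lay above C3a replicates 1 and 2. The mean was 0.25 ± 0.20 (SD, n = 3) without and 0.47 ± 0.20 (SD, n = 3) with C3a, a log2 difference of 0.22 (standard error 0.15, adjusted p = 0.743 from limma) or 1.16-fold (95% interval 0.915 to 1.48). Arrays of the same replicate number deviated together, and between them the difference was 0.19, 0.24 and 0.23, above 0 in 3 of 3 pairs. Adra1b, Grk2 and Arrb2 were also above 0 in each pair, and the share of all genes with 1 sign throughout was not taken. In the unpaired fit the Adra1a difference was 0.11 without C3a replicate 3 and 0.13 without control replicate 2. With the replicate numbers as pairs, the replicate block of the closing section, its standard error was 0.086. The unadjusted p from limma was 0.0484, and Adra1a was the only member under 0.05 there. The adjusted p with the block was 0.365, and 11.8% of all genes passed an unadjusted p under 0.05 with it.

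The further Adra1a probes gave smaller differences. A second probe of the same transcript (A_44_P165594), well above background on all 6 arrays, had a log2 difference of 0.10 (standard error 0.12, adjusted p = 0.811 from limma). A probe for a predicted transcript variant (A_44_P1113304), well above background on 5 of 6 arrays, had one of 0.053 (standard error 0.16, adjusted p = 0.927 from limma). The 3 probes had the same sign, and each difference was smaller than 2 of its standard errors.

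Adra1b encodes the alpha-1B receptor. Its 1 probe (A_64_P138011) was bright, between 3772 and 5843 intensity units before scaling. The level was 4.29, 3.94 and 4.14 on the control arrays and 4.41, 4.34 and 4.19 on the C3a arrays. C3a replicates 1 and 2 were above every control, but C3a replicate 3 was below control replicate 1. The mean was 4.12 ± 0.17 (SD, n = 3) without and 4.31 ± 0.11 (SD, n = 3) with C3a, a log2 difference of 0.19 (standard error 0.12, adjusted p = 0.743 from limma). The ratio was 1.14 with a 95% interval of 0.933 to 1.39. Within the pairs of equal replicate number it was 0.12, 0.40 and 0.05 on the log2 scale, and without control replicate 2 the log2 difference fell to 0.10.

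Adra1d encodes the alpha-1D receptor, known mainly from vascular smooth muscle. Its probe (A_42_P501233) sat at the edge of detection, well above background on 1 of the 3 controls and on each of the 3 C3a arrays. The level was -2.80, -3.58 and -4.20 on the control arrays, of which replicate 2 alone measured it, and -3.20, -2.80 and -2.93 on the C3a arrays. Intensities before scaling were 39.3, 30.8 and 14.7 units in the controls and 25.1, 41.3 and 27.2 units with C3a. Control replicate 1 had the highest level of all 6, so the groups overlapped. The log2 difference was 0.55 (standard error 0.33, adjusted p = 0.743 from limma), with a 95% interval of -0.23 to 1.32. It depended on single controls, at 0.91 without control replicate 1 and 0.21 without control replicate 3. The probe entered the test through the C3a arrays alone, where its mean level was higher, so the filter favoured a difference above 0. Smooth muscle and pericyte genes gave a median log2 difference of 0.041, and the summed signal of their 8 tested genes ranged from 73.1 to 87.4 in the controls and from 73.0 to 88.1 with C3a, in units of the 75th percentile. Of these 8 genes Notch3 alone passed an unadjusted p under 0.05, at a log2 difference of 0.41 (adjusted p = 0.743 from limma). The part of these cells in the Adra1d values was not tested.

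Grk2 encodes the receptor kinase first described as the beta-adrenergic receptor kinase. Its probe (A_44_P491621) had a level of 0.43, 0.44 and 0.50 on the control arrays and of 0.57, 0.54 and 0.65 on the C3a arrays. Every C3a array exceeded every control (p = 0.1 in a two-sided exact permutation test, where 3 against 3 arrays can give no smaller value). The mean was 0.45 ± 0.041 (SD, n = 3) without and 0.59 ± 0.058 (SD, n = 3) with C3a, the closest agreement between control arrays among the members. The log2 difference was 0.14 (standard error 0.089, adjusted p = 0.743 from limma), or 1.10-fold with a 95% interval of 0.949 to 1.27. The methods' t-test, which uses the spread of this probe alone, gave an unadjusted p of 0.0299 on the same values, and an adjusted p of 0.783, without limma's shared spread. Before scaling, the intensity was 367, 497 and 382 units in the controls and 343, 419 and 326 units with C3a, so the order of the groups was not kept without scaling.

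Grk5 encodes the other receptor kinase that is abundant in heart muscle. Its probe (A_44_P363229) had a level of -0.98, -0.86 and -1.07 on the control arrays and of -1.0, -1.03 and -1.31 on the C3a arrays. C3a replicate 3 was below every other array, and C3a replicates 1 and 2 lay within the range of the controls. The mean was -0.97 ± 0.11 (SD, n = 3) without and -1.11 ± 0.17 (SD, n = 3) with C3a. The log2 difference was -0.14 (standard error 0.12, adjusted p = 0.758 from limma), a ratio of 0.907 with a 95% interval of 0.744 to 1.11. It was below 0 in 3 of 3 pairs of equal replicate number, at -0.016, -0.17 and -0.24. Here too the share of all genes with 1 sign throughout was not taken. The log2 difference depended on single arrays. It was -0.043 without C3a replicate 3 and -0.086 without control replicate 2.

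Arrb1 and Arrb2 encode beta-arrestin 1 and beta-arrestin 2. The brightest Arrb1 probe (A_43_P11303) is one for a predicted transcript variant. It had a level of 1.55, 1.34 and 1.57 on the control arrays and of 1.51, 1.65 and 1.48 on the C3a arrays. These overlapped widely, with a log2 difference of 0.061 (standard error 0.11, adjusted p = 0.872 from limma) that ran from -0.014 to 0.10 over the arrays left out. A dimmer Arrb1 probe (A_44_P402468), for a transcript that is not a predicted one, was detected on all 6 arrays. Its mean level in the controls was -1.92, against 1.49 for the brightest probe, and its log2 difference was 0.14 (standard error 0.21). The third, for another predicted variant (A_44_P1101301), was well above background on none. The Arrb2 probe (A_42_P792129) had a level of 0.52, 0.32 and 0.58 on the control arrays and of 0.59, 0.62 and 0.64 on the C3a arrays. Here too every C3a array exceeded every control, the nearest at 0.59 against 0.58 (p = 0.1 in the two-sided exact permutation test). The log2 difference of Arrb2 was 0.14 (standard error 0.10, adjusted p = 0.743 from limma), or 1.11-fold with a 95% interval of 0.934 to 1.31, and it was 0.068 without control replicate 2.

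**Figure D2:**
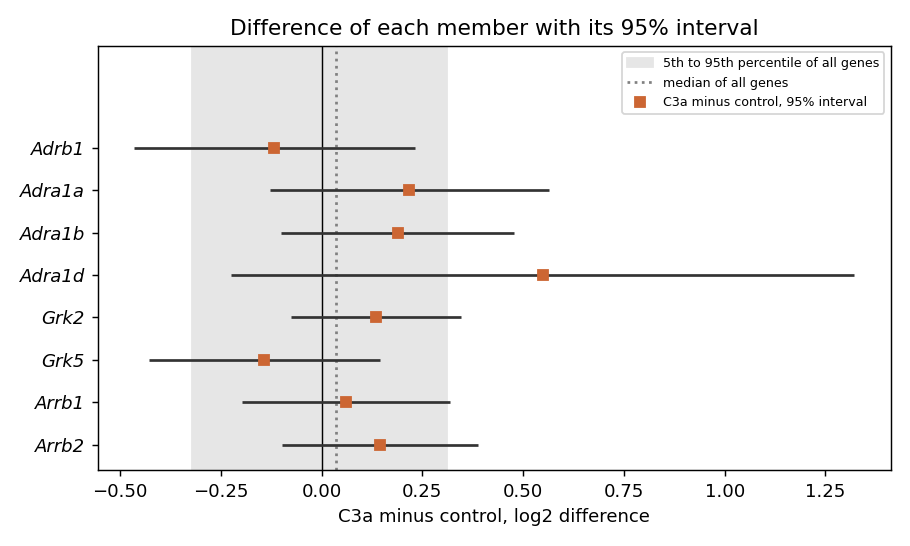
Log2 difference, C3a minus control, of the 8 tested members (squares) with the 95% interval from limma (lines). The grey band runs from the 5th to the 95th percentile of all tested genes, -0.32 to 0.31, and the dotted line is their median, 0.036. Every interval holds 0, and only the Adra1d square lies outside the band.

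The groups did not overlap for 2 of the 8 members, Grk2 and Arrb2, with the C3a arrays above. Over all genes with a tested probe, the C3a arrays were wholly above the controls for 8.15% and wholly below for 4.84%, together 13% of genes. Some arrays were the extremes for several members, and how often they were so over all genes was not counted. Among the 6 members detected on every array, control replicate 2 was the lowest array for 4 (Adra1a, Adra1b, Arrb1 and Arrb2) and the highest for Grk5. C3a replicate 3 was the highest array for Adra1a, Grk2 and Arrb2 and the lowest for Grk5. These arrays were also the extremes in overall brightness, since the 75th percentile was 367 intensity units on control replicate 2 and 207 units on C3a replicate 3, against 230 to 288 units on the other arrays. The part of brightness in these values was not tested.

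The intervals show what 3 arrays a group can resolve. For the members detected on all 6 arrays, the upper end of the 95% interval was between 1.11-fold for Grk5 and 1.48-fold for Adra1a, and the lower end between 0.744-fold for Grk5 and 0.949-fold for Grk2. With this scaling a doubling or halving lay outside the interval of each of these 6 transcripts. With spike-in scaling the intervals were wider and those of 4 of the 6 held a halving. For Adra1d the interval reached 2.50-fold.

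The sign of several members depended on the scaling between arrays. Without normalization the median log2 difference of all genes was -0.29, and with scaling to 7 spike-in probes -0.41, against 0.036 with the 75th percentile. Under these scalings Adra1a, Adra1b, Grk2, Arrb1 and Arrb2 lay below 0, between -0.39 and -0.11, while Adrb1 and Grk5 stayed below 0 and Adra1d above. Relative to the median of all genes under the same setting, a member's value cannot move when whole arrays are shifted or when only the test or the block is changed. The filter on detection on all 6 arrays changed that median, which moved Adra1a from 0.182 to 0.185 on the relative scale. It turned no member's sign and is left out of the counts that follow. Of the 11 other alternatives that moved Arrb1 on this relative scale, 3 turned its sign (normexp, without control replicate 2 and without C3a replicate 2). For Adra1a 0 of 11 did, and for each other tested member 0 of 10. These counts include the deposited table, which holds nearly the same scaled values and could hardly turn a sign. It moved Adrb1 from -0.1534 to -0.1535. Relative values ranged from 0.014 to 0.28 for Adra1a, from 0.092 to 0.22 for Adra1b, from 0.048 to 0.13 for Grk2 and from 0.043 to 0.16 for Arrb2. They ranged from -0.30 to -0.058 for Adrb1 and from -0.23 to -0.067 for Grk5. These signs describe the same 6 arrays each time and none passed an adjusted threshold.

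**Figure D3:**
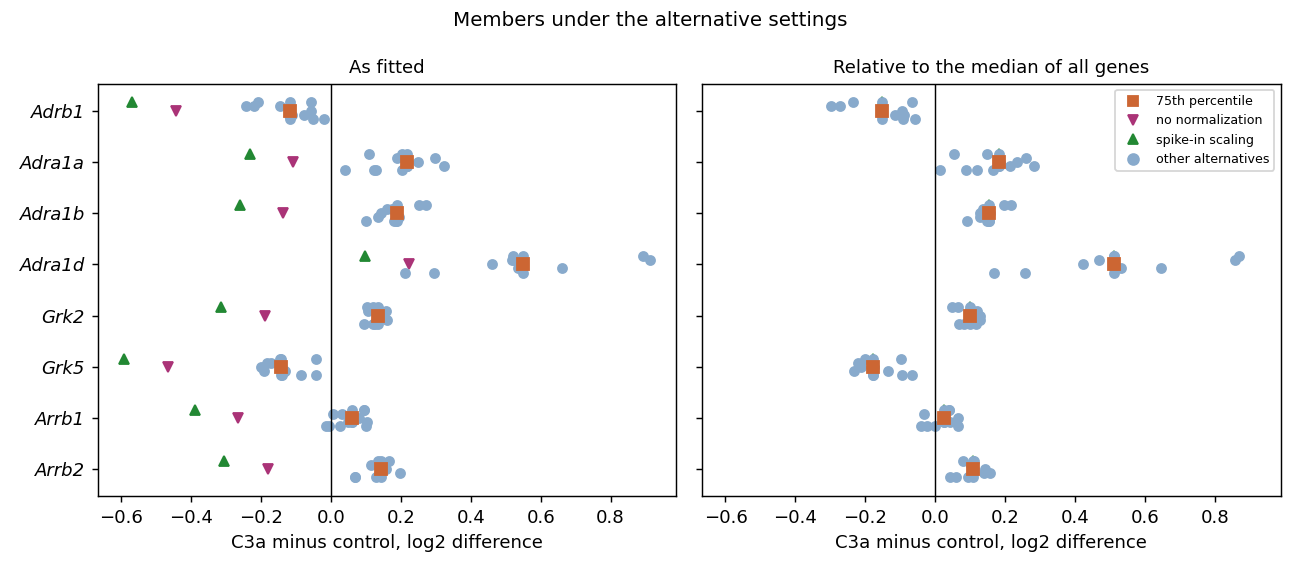
Log2 difference, C3a minus control, of each tested member under every setting, as fitted (left) and after subtraction of the median over all genes in that setting (right). Squares are the 75th percentile, downward triangles no normalization, upward triangles spike-in scaling and circles the other alternatives. On the left the triangles shift all members towards lower values, and on the right they fall among the circles.

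Differences between related members within an array are free of the scaling, and 4 were taken after the values had been seen. Adra1a minus Adrb1 was 2.22, 1.70 and 2.08 on the control arrays and 2.35, 2.30 and 2.35 on the C3a arrays, which lay above all controls. How many of all gene pairs separate in this way was not counted. The shift of Adra1a minus Adrb1 between the groups was 0.34 on the log2 scale. It ranged from 0.18 to 0.45 with each array left out and was 0.22 with normexp. On control replicate 1 Adrb1 was not well above background. Adra1b minus Adrb1 shifted by 0.31, with control replicate 1 (6.28) above C3a replicate 3 (5.84). Grk2 minus Grk5 was 1.41, 1.30 and 1.58 on the control arrays and 1.57, 1.58 and 1.97 on the C3a arrays, a shift of 0.28 in which the groups touched. Arrb1 minus Arrb2 shifted by -0.083, and the groups overlapped. Having been picked after the fact, these shifts are a description, and with 3 against 3 arrays none could reach a p under 0.1 in an exact permutation test.

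**Figure D4:**
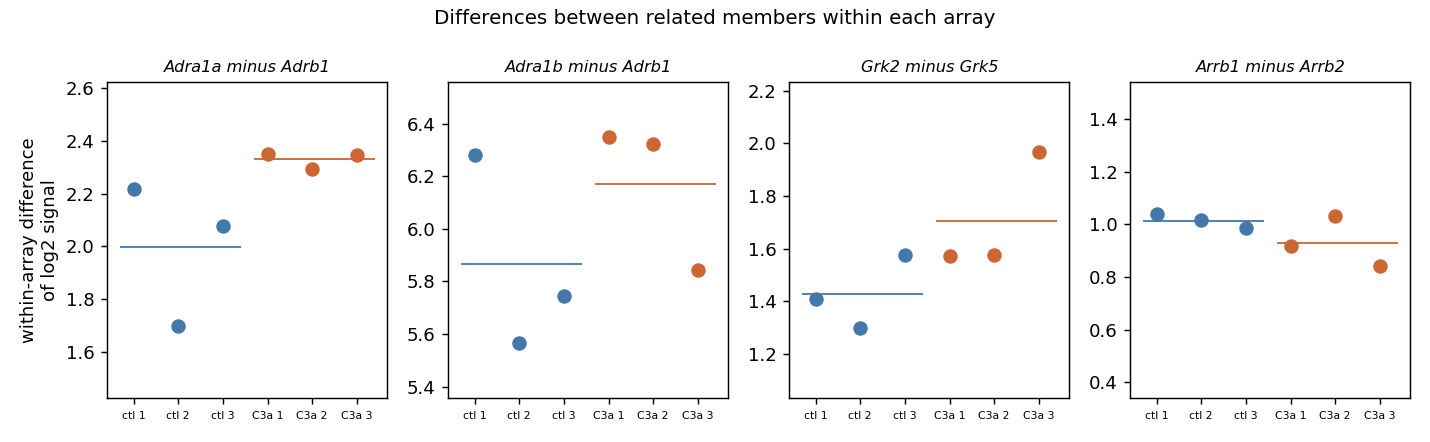
Difference of log2 signal between related members on each array, with controls (ctl) in blue, C3a arrays in orange and lines at the group means. The 4 panels span the same length on the vertical axis. The C3a points of Adra1a minus Adrb1 lie together between 2.30 and 2.35, above the control points at 1.70 to 2.22, and the other panels overlap.

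Among the 8556 genes detected on all 6 arrays, those most like a receptor were sought by the mean absolute difference of levels over the 6 arrays, each gene centred on its own mean. For Adra1a these were Zfp418 (0.033) and Arhgap12 (0.034), and for Adra1b they were Lrch4 (0.015) and Acot13 (0.017). Their log2 differences, C3a minus control, were 0.21, 0.25, 0.20 and 0.17 in that order, near the 0.22 of Adra1a and the 0.19 of Adra1b. With 6 arrays such likeness is a description. It was sought over both groups at once, so near differences follow from how these genes were chosen.

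The genes around the receptors were read from lists of the pathway, 136 genes in all, of which 94 had a tested probe. None passed an adjusted p under 0.05 (smallest 0.743 from limma). At an unadjusted p under 0.05 there were 2 higher and 1 lower, together 3.19% of the 94, beside 5.33% of all genes. The difference was above 0 for 71 of the 94, and their median was 0.086. Some of the 94, Gnb5 and Arrdc2 among them, entered the test through the C3a arrays alone. With the replicate block, 5 of the 94 were higher and 3 lower at an unadjusted p under 0.05, beside 11.8% of all genes, and 0 passed after adjustment. The 3 genes named by the rule of smallest p were Rgs6, Pkia and Gnb5. Rgs6, which speeds the shut-off of inhibitory G proteins, had a level of 1.22 ± 0.11 (SD, n = 3) without and 1.49 ± 0.073 (SD, n = 3) with C3a, a log2 difference of 0.27 (adjusted p = 0.743 from limma). Pkia, an inhibitor peptide of protein kinase A, had 1.44 ± 0.13 (SD, n = 3) without and 1.75 ± 0.14 (SD, n = 3) with C3a, a difference of 0.31 at the same adjusted p. Gnb5, a G protein beta subunit that partners such regulators, had a difference of -0.57, also at an adjusted p of 0.743 from limma, on a dim probe that control replicate 1 did not measure.

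The genes named from here on were chosen for their role after their values had been seen. The counts of each list stand beside 60.6% of all genes above 0 and, at an unadjusted p under 0.05, 2.91% higher and 2.43% lower. Of the alpha-2 receptors, Adra2b was detected on all 6 arrays, with a log2 difference of 0.12 (adjusted p = 0.831 from limma), and Adra2a and Adra2c were well above background on none. Among other receptor kinases, Grk4 and Grk6 were detected on all 6 arrays, with differences of 0.12 and -0.01, and the probes of Grk1 and Grk3 were not well above background on any array. The retinal arrestins Sag and Arr3 were likewise not detected on any array. The arrestin-like genes Arrdc1 and Arrdc3 were detected on all 6, at differences of 0.067 and 0.16. Arrdc2, dim and detected on 5 of 6 arrays, had the highest difference of its list, 0.57 (adjusted p = 0.743 from limma, and 0.221 with the replicate block). Its probe was well above background on 2 controls and 3 C3a arrays, so it entered the test through the C3a arrays alone. Its lowest level, -4.11, was on control replicate 1.

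On the cyclic AMP side, 8 of 11 tested G protein and adenylyl cyclase genes lay above 0, with a median of 0.13 and 0 higher and 1 lower at an unadjusted p under 0.05. Adcy5 and Adcy6, the main adenylyl cyclases of cardiomyocytes, had differences of 0.14 and 0.0081. Gnas, the stimulatory alpha subunit, had one of 0.17, and Gnai2, an inhibitory one, also 0.17. Of the 17 tested genes for protein kinase A, its anchors and Epac, 14 lay above 0 with a median of 0.10, and the catalytic subunit Prkaca had 0.24 (standard error 0.11). The 8 tested phosphodiesterases, which break down cyclic AMP, had a median of 0.13 and ran from -0.17 for Pde4a to 0.33 for Pde4b, with 0.26 for Pde4d and 0.25 for Pde3a. Among 15 tested substrates and induced genes the median was 0.074, with 0.11 for phospholamban (Pln), -0.11 for the calcium release channel Ryr2, 0.057 for Crem and 0.013 for Nr4a1. Of the kinase, phosphodiesterase and substrate genes, Pkia alone passed the unadjusted threshold. With the replicate block Pkia, Pde4b and Pde4d did, beside 11.8% of all genes.

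On the alpha-1 side, 8 of 13 Gq, phospholipase C and protein kinase C genes with a probe were tested, 0 passed either threshold and the median was 0.030. Gnaq and Gna11, the alpha subunits that alpha-1 receptors use, had differences of 0.41 and 0.32. Control replicate 1 did not measure their probes, so both entered the test through the C3a arrays alone. The phospholipases Plcb3 and Plcb4 had differences of 0.26 and -0.13. Of the 8 tested regulators of G protein signalling, 1 was higher at the unadjusted threshold and the median was 0.064, with 0.10 for Rgs2, which acts on Gq.

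Genes that make the receptors' ligands were on the arrays as well. Th and Ddc, which make dopamine, Dbh, which turns it into noradrenaline, and Pnmt, which turns that into adrenaline, were detected on all 6 arrays, and their differences lay between 0.034 and 0.16. The noradrenaline transporter Slc6a2 of sympathetic nerve endings was well above background on none. Maoa, which degrades catecholamines, had a difference of -0.41 and did not pass the unadjusted threshold of limma. The 7 tested genes of the list had a median of 0.034, with 0 of them past either threshold. With the replicate block 2 were lower at the unadjusted threshold, beside 11.8% of all genes in either direction.

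**Figure D5:**
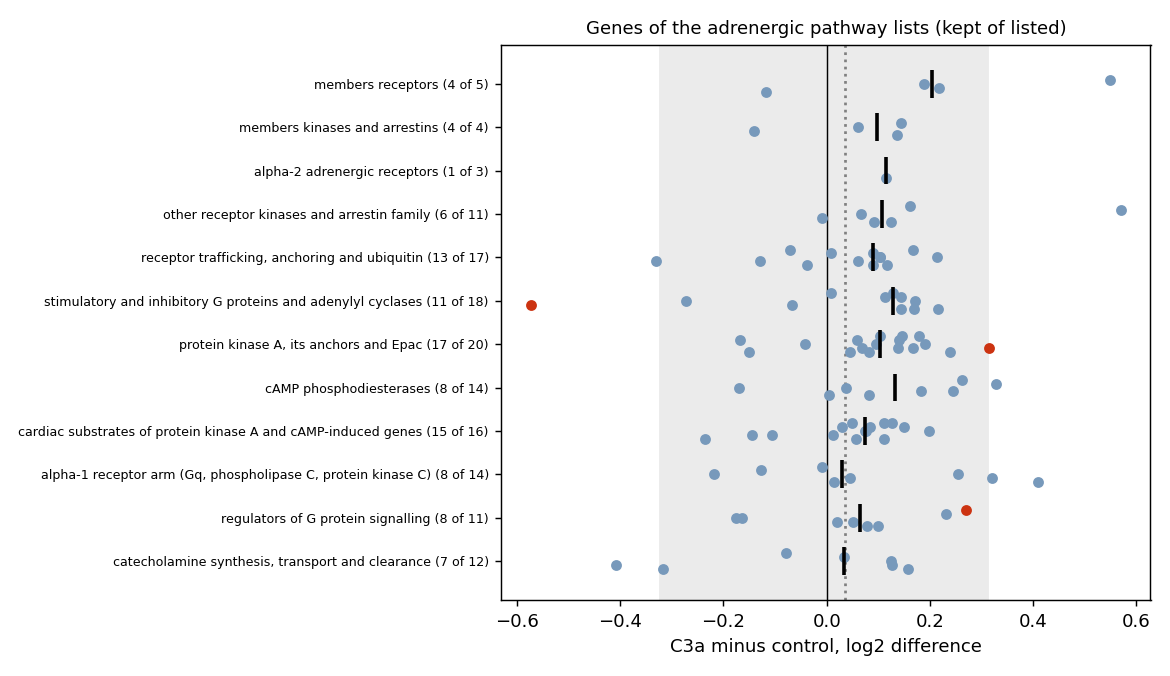
Log2 difference, C3a minus control, of each tested gene in the member lists and the pathway lists, with the number tested of those listed in parentheses. Bars are list medians, red points the 3 genes with an unadjusted p under 0.05 in limma, the grey band the 5th to 95th percentile and the dotted line the median of all tested genes. The list medians lie between 0.030 and 0.20, and most points fall within the band.

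Marker lists of other cells were read beside these values, and their part in the results was not tested. The median log2 difference was 0.15 for the 13 cardiomyocyte genes, 0.14 for 5 endothelial, 0.14 for 6 macrophage, 0.15 for 6 Schwann cell and neuron and -0.053 for 10 fibroblast genes. The summed signal of the fibroblast genes ranged from 97.8 to 111 in the controls and from 96.7 to 113 with C3a, and that of the cardiomyocyte genes from 5225 to 6692 and from 6421 to 7199. It ranged from 33.1 to 45.8 and from 42.2 to 53.4 for endothelial, from 6.01 to 7.52 and from 6.10 to 6.69 for macrophage, and from 4.09 to 5.36 and from 4.95 to 5.30 for Schwann cell and neuron genes. At an unadjusted p under 0.05 limma gave the fibroblast gene Lum lower (-0.54), and the macrophage gene Itgam (0.63) and Notch3 higher, each on a probe detected on 5 of 6 arrays. The macrophage markers Cd163 and C1qa were well above background on no array. The ranges overlapped between the groups in each list. Some markers also stand in a pathway list, among them Pln, Ryr2, Rgs5, Th and Dbh.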

How the data were processed

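Gene expression of NRVCs was measured on 6 Agilent SurePrint G3 Rat arrays. Spot intensities deposited by the authors come from Agilent Feature Extraction 11.5.1.1, which corrected them for background without normalization between arrays. They also deposited a table of log2 values, whose columns were set against the scanner values and matched log2 intensity scaled to the 75th percentile without centring (median difference at most 0.0062). It was used as an alternative. The methods name GeneSpring, and how the table was normalized is not given in the sources used here.

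Control spots and spots with an outlier flag were left out and spots of one probe averaged, which gave 45572 probes. A probe was well above background where at least 50% of its spots were. The accession of 46.3% of the probes matched the gene table of the GRCr8 assembly, giving 16575 symbols. The array was designed on another assembly, so no coordinates are given. Depth has no counterpart on arrays, and their number limits the precision. Groups followed the sample titles.

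The comparison of C3a and control used limma 3.58.1 under R 4.3.3 (two-sided, lmFit then eBayes, no covariate), adjusted by Benjamini-Hochberg over the 23438 kept probes. On simulated data for C3a against control, the fit on 23438 probes was tested, and 5 of 50 probes changed by 0.5, 42 of 50 changed by 1 and 46 of 50 changed by 2 on the log2 scale were called, with 3 false calls. Replicate numbers were taken as pairs in the block. Deviations from the group means correlated at 0.28, 0.32 and 0.31 for arrays of the same number and between -0.26 and -0.093 for the others. Deviations cancel within a group, so the positive and the negative correlations are not separate evidence. The pairing comes from these values, and the labels give only the number, not what samples of equal number share. Exact permutation tests enumerate all splits of 3 against 3 arrays. The members and lists were chosen with earlier results of these data known. Named were all members, up to 3 genes of smallest unadjusted p under 0.05 per pathway list, and the 2 genes most like each receptor detected on all arrays. Alternatives were quantile, spike-in and no normalization, the percentile over detected probes, normexp with offset 50 on the median spot signal, other filters, a variance trend, array weights, the methods' t-test, the deposited table, the block by replicate number, leaving out single arrays and the mean of a gene's probes. Within-array differences between members were added after seeing the data. Figures were drawn with matplotlib 3.10.9. The probes' sequences were not used here.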

Additional observations from a re-analysis of the deposited data

How the results depend on the processing

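No member passed an adjusted p under 0.05 in limma or the methods' t-test in any of the 20 alternatives. Without normalization the log2 difference was -0.11 for Adra1a, -0.14 for Adra1b, -0.19 for Grk2, -0.26 for Arrb1 and -0.18 for Arrb2. With spike-in scaling it was -0.23, -0.26, -0.32, -0.39 and -0.31 in the same order. Arrb1 was also below 0 with normexp (-0.0042) and without control replicate 2, with -0.014 to 0.10 over the arrays left out. At an unadjusted p under 0.05, 1 member was higher with array weights (Adra1d), with the methods' t-test (Grk2) and with the replicate block (Adra1a), against 0 otherwise, and 0 or 1 with each array left out. Without control replicate 1 the member was again Adra1d, which entered the test through the C3a arrays alone. Of the pathway genes, 2 higher and 1 lower by the design became 0 and 7 without normalization, 0 and 4 with spike-in scaling, 0 and 2 without a filter on dim probes, 4 and 0 with array weights, 9 and 0 with the methods' t-test and 5 and 3 with the replicate block. The number higher was 1 with the percentile over detected probes and 5 with normexp. The number lower was 0 with quantile normalization, 2 with the filter on 2 of 3 arrays and 3 with a variance trend. Leaving out each array gave 0 to 4 higher and 0 to 3 lower. The share of all genes under an unadjusted p of 0.05 was taken for the design (5.33%) and the replicate block (11.8%) only. The counts of the other settings stand without such a share. The median log2 difference of all genes was -0.29 without normalization and -0.41 with spike-in scaling. After adjustment 0 pathway genes passed in each setting, and the replicate block changed no call at an adjusted p. The cause of these shifts was not tested. Adra1d ranged from 0.21 to 0.91 and Grk5 from -0.20 to -0.043 over the arrays left out. Detection on all 6 arrays was 6 of 9 members by the stricter flag, also with all spots of a probe, and 8 of 9 by the flag for positive and significant signal. Dim signal over background limits Adrb1, Adra1d and Adrb3.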
